A study of Homo sapiens with 18 samples.

Results

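The human line DLD1, established from a colorectal adenocarcinoma, was infected with lentivirus carrying CRISPR guides and kept under puromycin (10 µg/ml, from 48 h after infection) as stable lines in medium with 5% serum. The comparison described here sets cells carrying guide sgZ3 against ZNF692, labelled ZNF692 knockout, beside cells carrying the control guide sgC, labelled wild type. Infection and drug selection were shared by both groups, and the labels do not say whether each line is 1 clone or a pool. Poly(A) RNA was counted in 3 sgZ3 and 3 sgC libraries, 6 of the 18 libraries in the series, and every gene with enough counts was a member of the comparison. Of 47021 genes in the table, 27152 had at least 1 count in these 6 libraries and 14021 passed the low-count filter and were tested. The 3 libraries of the other ZNF692 guide, sgZ1, took no part in the fit and appear only in a direct test of the difference between the guides. Nothing in the labels ties replicates to separate cultures, so each p-value reflects the spread among these libraries, which could be technical.

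ZNF692 encodes a zinc-finger protein that has been described as a transcription repressor of gluconeogenic genes and as a nucleolar factor needed for maturation of the small ribosomal subunit. Ribosome assembly takes place largely in the nucleolus, where RNA polymerase I makes the precursor RNA and many assembly factors cut, modify and fold it. Colorectal cancer cells make ribosomes at a high rate, and genes of this program are known targets of MYC, which binds the E-box CACGTG.

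ZNF692 mRNA was 6.94, 6.29 and 6.14 CPM in sgC and 7.9, 8.04 and 6.2 CPM in sgZ3, in replicates 1, 2 and 3. CPM here means counts scaled to a common library size with TMM factors. The groups overlapped, and the log2 fold change of sgZ3 over sgC was 0.19 (SE 0.14, adjusted p = 0.30). Without sgZ3 replicate 3, which stood apart as described below, ZNF692 was called higher, at 0.31 (adjusted p = 0.0464). A guide that leaves a frame-shifted transcript in place need not lower the mRNA, so a gene-level count does not check the edit. It is a protein-coding gene at chr1:248850006-248859144 (GRCh38), transcribed from the minus strand.

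Total counts were 18146624 to 22111364 per library in sgC and 16044224 to 20613158 in sgZ3, and no pair of libraries had identical counts. The common biological coefficient of variation was 11.1%, and the median SD of a gene on the log2 scale was 0.098 in sgC and 0.16 in sgZ3. Markers of colorectal epithelium summed to between 5470 and 5910 CPM in sgC and between 6430 and 6650 in sgZ3, with all 8 of 8 present. KRT8 and EPCAM were called higher (KRT8 not without sgC replicate 1 or sgC replicate 3), CDH1, VIL1 and LGALS4 were not called at -0.21, -0.27 and -0.42, and the median log2 fold change of the 8 markers was -0.068. Of the exons of VIL1 44% lie under exons of the opposite-strand gene USP37, and 20.4% of the 50-base words of KRT8 are shared with other genes. Leukocyte markers summed to 4.91 to 6.7 CPM with MS4A1 and CD68 among those at 0, and endothelial markers to 2.61 to 4.28 CPM. The 10 markers of embryonic kidney cells, the usual packaging cells for lentivirus, summed to 90.5 to 112 CPM in sgC and 115 to 147 in sgZ3, with NEFM at 0. GAL alone went from 34.9 to 52.7 CPM in sgC to 68 to 97.6 in sgZ3, while 3 of the 6 tested markers were called lower and 1 higher, with a median of -0.87.

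The third sgZ3 library stood apart from the other two. The 26 mesenchymal markers summed to 267 CPM in it and to 104 to 125 CPM in the other 5 libraries, with COL1A2 and LUM at 0 in all. SPARC was at 65.8 CPM against 5.06 to 5.88, and VIM at 20.9 against 0.108 to 1.21. In this library 75 genes at 2 CPM or more were over 4-fold above each other library, and 0 genes were as far below. It also lay nearer to sgC. Its log2 levels correlated with those of the sgC libraries at 0.9846 to 0.9875, against 0.9748 to 0.9823 for sgZ3 replicates 1 and 2. Of 8496 genes called when it was left out, 7400 (87.1%) had it on the same side of the sgC mean. Its median difference was 53% of that seen in sgZ3 replicates 1 and 2. Those genes were picked on replicates 1 and 2, which by itself lowers that share. The part of these differences in each result below was not tested, and counts without this library are given beside the lists they move most. Without it, 29.8% of 14311 tested genes were called higher and 30.1% lower.

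Fold changes moved with transcript length. Over the 13922 tested genes with a length and GC value, Spearman's rho of the log2 fold change was -0.32 with exonic length and 0.22 with GC content. It is given as a description across genes, which are not independent. The shortest decile of genes (median 973 bases) had a median log2 fold change of 0.24, with 24.3% called higher and 6.25% lower. The longest decile (median 12720 bases) had a median of -0.32, with 7.82% called higher and 40.1% lower. The trend was in sgZ3 replicates 1 and 2 (0.27 and 0.28 for the shortest decile, -0.41 and -0.38 for the longest) and was small in replicate 3 (0.027 and -0.12). Every list of genes below was therefore also fitted with offsets for length and GC, which brought rho to 0.0092 and -0.084, and offset values are given beside the lists and genes they move most. Counts in a list are to be read beside the shares of all genes given below. Whether the trend comes from the cells or from the RNA was not tested.

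**Figure D1:**
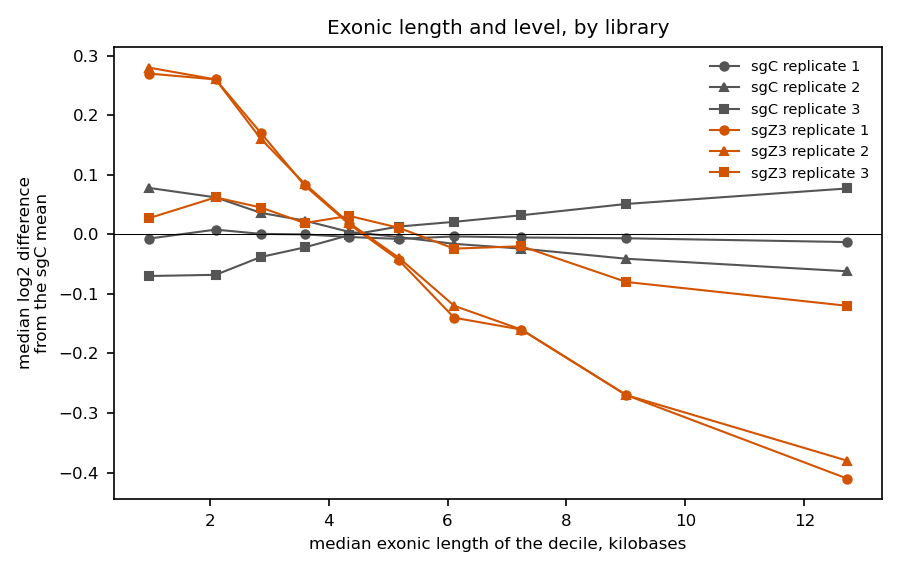
Median log2 difference from the sgC mean in each decile of genes by exonic length, 1 line per library. The sgZ3 replicate 1 and 2 lines fall from 0.27 and 0.28 in the shortest decile to -0.41 and -0.38 in the longest, and the sgZ3 replicate 3 line runs from 0.027 in the shortest to -0.12 in the longest decile, where the sgC lines run from -0.062 to 0.077.

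In sgZ3, genes of amino-acid stress and serine synthesis and the glucose-responsive arrestins TXNIP and ARRDC4 fell, while assembly factors of both ribosomal subunits, DNA replication genes, chaperones, proteasome subunits and splicing factors rose. With Benjamini-Hochberg adjusted p-values from the quasi-likelihood test of edgeR, 5999 of 14021 genes (42.8%) were called at a false discovery rate under 0.05. Of these, 3056 (21.8%) were higher in sgZ3 and 2943 (21.0%) lower. Large changes were mostly downward, since 490 called genes (3.49%) were at least 2-fold lower and 172 (1.23%) at least 2-fold higher. Each sgZ3 library lay above each sgC library for 3679 genes (26.2%) and below for 3906 (27.9%). The share of calls in the upward direction was 50.9%, and it was 29.7% when libraries were scaled by their totals alone (1892 higher, 4477 lower) and 39.1% with upper-quartile factors (2377 and 3701). Scaling by totals moved the median of all genes by -0.15, from -0.017 to -0.17, so list medians under that scaling read against -0.17. The number of calls was 3501 without sgC replicate 1, 3635 without sgC replicate 3, 3847 without sgZ3 replicate 2 and 8573 without sgZ3 replicate 3.

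**Figure D2:**
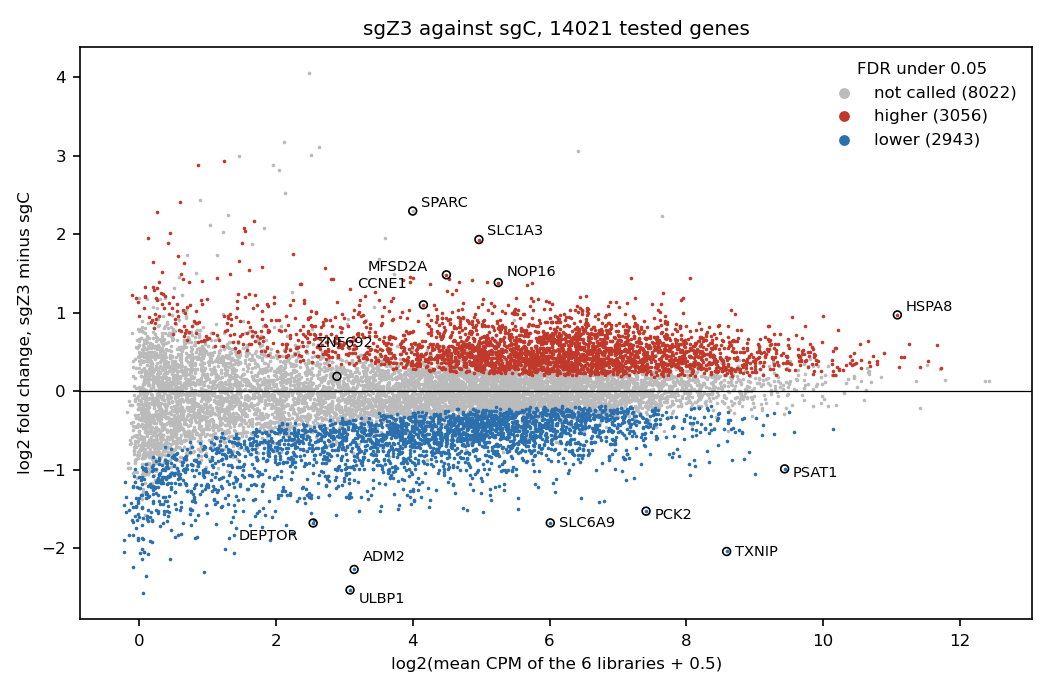
Log2 fold change of sgZ3 over sgC against mean level (log2 CPM) for the 14021 tested genes, with called genes coloured by direction. ULBP1 at -2.53, ADM2 at -2.27, TXNIP at -2.04 and SLC1A3 at 1.93 lie far from 0. Over all tested genes the values run from -2.57 to 4.06.

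The deepest falls included known targets of the amino-acid stress response. ULBP1, a ligand of the natural killer receptor NKG2D and a known ATF4 target, was at 12.9, 12.2 and 15.9 CPM in sgC and at 1.42, 1.78 and 3.7 in sgZ3 (chr6:149964007-149973710, plus strand). ADM2, a peptide hormone gene, was at 13.7, 12.6 and 15.2 CPM against 2.77, 2.48 and 3.3. In both genes the groups were far apart, with log2 fold changes of -2.53 (SE 0.29, adjusted p = 0.00066) and -2.27 (SE 0.15, adjusted p = 0.00018). TXNIP, an arrestin that binds thioredoxin and restrains glucose uptake, was at 704, 587 and 566 CPM in sgC and 150, 160 and 142 in sgZ3 (chr1:145992435-145996600, minus strand). Its fold change was -2.04 on the log2 scale (SE 0.10, adjusted p = 0.00014), with all 3 sgZ3 libraries far under sgC. The other 9 genes among the 12 with the lowest fold changes were NUPR1, TCP11L2, MAGEA6, BAZ2B, KRT16, SRCIN1, R3HDM2, DLX3 and DEPTOR, at -2.06 to -1.68. Reads of MAGEA6, R3HDM2 and KRT16 are uncertain, since 56.4%, 40.9% and 21.7% of their 50-base words occur in other genes.

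Among the 12 genes with the highest fold changes, the most abundant was a glutamate carrier. SLC1A3, which takes up glutamate and aspartate, was at 9.16, 13.9 and 15.2 CPM in sgC and 46, 49.3 and 51.1 in sgZ3, a log2 fold change of 1.93 (SE 0.17, adjusted p = 0.00029). MFSD2A, a carrier of lysophosphatidylcholine, was at 10.6, 12.8 and 11.4 CPM against 33.1, 32.7 and 31.4, a log2 fold change of 1.48 (SE 0.10). The lowest sgZ3 library was more than 2-fold above the highest sgC library in both genes. PTGER2, a receptor of prostaglandin E2, rose by 1.74 and ITGAE, the integrin subunit that binds E-cadherin, by 1.45, both with separated groups. P2RX5 (1.58; 55.1% of its 50-base words are shared), GALR2 (1.55) and ELFN1-AS1 (1.67) rose from under 2 CPM. HSD3B1, UPK3B and IFI27 were high mainly in the sgZ3 library that stood apart: 9, 18.1 and 5.15 CPM in replicate 3 against 1.73 to 5.13 in replicates 1 and 2. Their calls were each lost without sgC replicate 1, sgC replicate 2 or sgC replicate 3, with all 9 poly(A) libraries and with no low-count filter, and that of UPK3B also with the offsets, library totals or the replicate block. The histone genes H3C12 and H4C5, whose mRNA normally has no poly(A) tail, were highest in sgZ3 replicate 2 (5.45 and 7.77 CPM). In that library the RNA quality and poly(A) selection genes had their highest sum (318 CPM, 173 to 250 elsewhere). RMRP and RPPH1 gave 85.1 and 34.9 CPM of it, while MALAT1 (84.6 CPM) and NEAT1 (13.6 CPM) were below each sgC library. The sum thus does not describe every member. H4C5 lost its call without sgC replicate 1, sgC replicate 2, sgZ3 replicate 2 or sgZ3 replicate 3, and also with the replicate block, all 9 libraries or no low-count filter, and H3C12 shares 35.7% of its 50-base words with other genes.

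**Figure D3:**
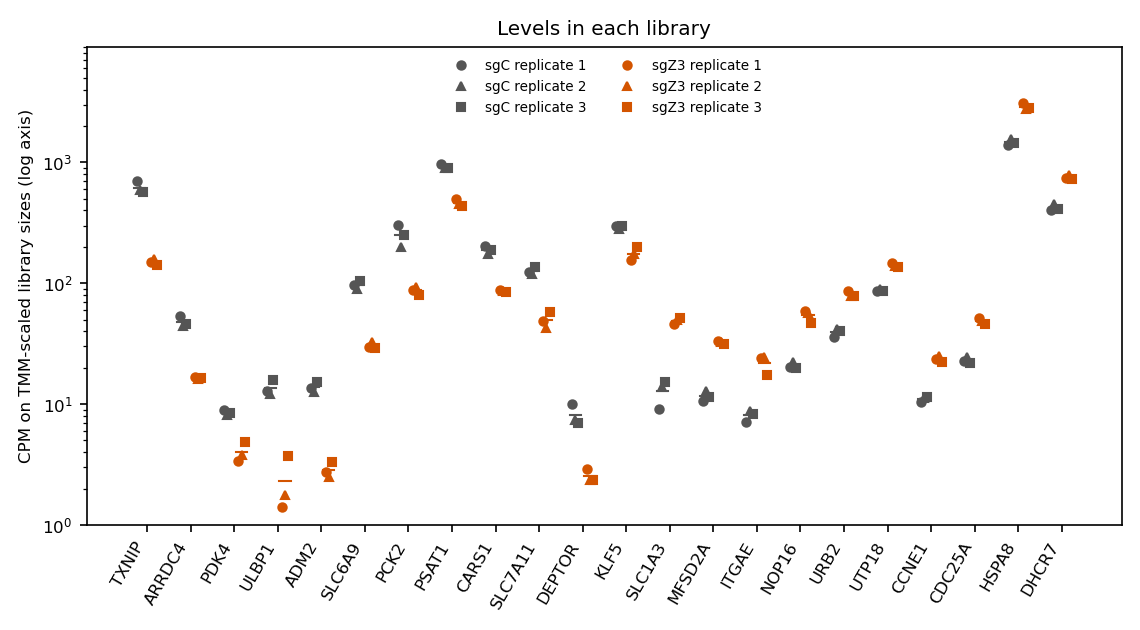
CPM on a log axis of 22 named genes in each of the 6 libraries, sgC and sgZ3 side by side. From TXNIP to KLF5 and for the other genes that fell, the 3 sgZ3 points lie under the 3 sgC points, and from SLC1A3 to DHCR7 they lie above.

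The amino-acid stress response is run by ATF4, a transcription factor whose translation rises when amino acids are scarce, and its targets include transporters, tRNA synthetases and serine synthesis enzymes. Of 32 tested genes of this response, 15 fell and 4 rose in sgZ3, with a median log2 fold change of -0.34 (21 fell and 3 rose with length and GC offsets, median -0.44). Without any single library other than sgZ3 replicate 3, 2 rose. SLC6A9, a glycine carrier, was at 97.2, 90.2 and 105 CPM in sgC and 29.9, 32.5 and 29 in sgZ3, a log2 fold change of -1.68 (SE 0.09, adjusted p = 0.00014). VLDLR, a lipoprotein receptor, fell by 1.49 with separated groups. ATF5 (0.55) and GDF15 (0.49), a secreted stress factor, were among the 4 that rose, and 21.2% of ATF5 exons lie under exons of the opposite strand. ATF4 itself was at 550, 526 and 517 CPM against 511, 501 and 421, and it was not called (log2 fold change -0.15, adjusted p = 0.19). With the offsets it was called lower (-0.41), and 26.6% of its 50-base words are shared with other genes. DDIT3, the pro-apoptotic factor CHOP, was not called either (-0.46, adjusted p = 0.14), and it was called lower with the offsets (-0.73). Of its exons 31.6% lie under exons of the opposite strand.

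Serine synthesis draws on glycolysis, and one-carbon metabolism passes the serine carbon on to folate. Of 21 genes tested, 8 fell and 3 rose (median -0.18), and 6 rose with the offsets. PSAT1, the transaminase of the serine pathway, was at 962, 906 and 896 CPM in sgC and 498, 456 and 438 in sgZ3, a log2 fold change of -0.99 (SE 0.08, adjusted p = 0.00026). PSPH (-0.81) and PHGDH (-0.48), which catalyse the last and the opening step, fell with it, so all 3 enzymes of the route were lower. MTHFD2, a mitochondrial folate enzyme, fell by 0.87, with 33.2% of its exons under exons of the opposite strand. SLC19A1, the reduced folate carrier, went the other way, from 32.9, 34.3 and 36.3 CPM to 74.8, 77.1 and 82.6 (log2 fold change 1.18). The count of falling members was 5 without sgC replicate 3 or sgZ3 replicate 2.

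Cytosolic aminoacyl-tRNA synthetases, which load amino acids onto tRNAs, split evenly: 9 of 22 fell and 9 rose. CARS1 was at 202, 176 and 190 CPM in sgC and 87.6, 86 and 85 in sgZ3 (log2 fold change -1.14, SE 0.08). AARS1 fell by 0.95 and GARS1 by 0.90, and these 3 enzymes load cysteine, alanine and glycine. FARSA, a subunit of the phenylalanine enzyme, rose by 0.76. Of 18 amino-acid transporters tested, 11 rose and 2 fell (median 0.35), with SLC16A10, an aromatic amino-acid carrier, up by 1.09. SLC7A6 rose by 1.13, but 55.6% of its exons lie under exons of opposite-strand genes, SLC7A6OS among them. SLC43A1, a carrier of large neutral amino acids, fell by 0.75. SLC7A11, which imports cystine, was at 124, 120 and 135 CPM in sgC and 48.4, 42.5 and 57.3 in sgZ3, a log2 fold change of -1.36 (SE 0.11).

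To show the E-box where it lies outside exons, 60 bases of the promoters of UTP18, which rose, and ARRDC4, which fell, are printed from RefSeq (GRCh38.p14), 5′ to 3′ on the gene's strand, with CACGTG in capitals. The UTP18 window is chr17:51260430-51260489 on the plus strand, and its motif begins 89 bases before the start of the gene. The ARRDC4 window is chr15:97960466-97960525 on the plus strand, and its motif begins 210 bases before the start.
UTP18: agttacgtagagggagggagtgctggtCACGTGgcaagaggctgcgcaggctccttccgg
ARRDC4: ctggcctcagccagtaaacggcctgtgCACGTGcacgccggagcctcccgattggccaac
The motif reads the same on both strands. It was in 9.24% of 15272 promoters of tested genes, from 250 bases before to 50 after the start, and in 7.26% of all 35116 promoters in the table. Promoters of genes called higher held it in 11.8%, of genes called lower in 7.89% and of genes not called in 8.78%. It was in 22 of 55 promoters (40%) of the 40S maturation genes and in 18 of 58 (31.0%) of the large-subunit genes. Over the 250 bases before the start alone these shares were 14.5% and 15.5%, against 8.2% for all tested genes. A match describes letters only, and 74.7% of tested gene symbols had a promoter in the table.

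Assembly factors of both ribosomal subunits rose, by moderate amounts that were alike in the 3 sgZ3 libraries. Of 63 tested genes for 40S maturation and the small-subunit processome, 34 rose and 2 fell (54% higher, against 21.8% of all genes), with a median log2 fold change of 0.36 against -0.017 for all genes. The medians of the 3 sgZ3 libraries against sgC were 0.32, 0.30 and 0.34. UTP18, a processome subunit whose promoter is printed above, was at 87, 90.1 and 86 CPM in sgC and 146, 139 and 137 in sgZ3, a log2 fold change of 0.68 (SE 0.07, adjusted p = 0.0004). UTP4, another processome subunit, rose by 0.45, the helicase DHX37 by 0.67 and PNO1, a late 40S assembly factor, by 0.59. The kinase RIOK3 fell by 0.85. Without sgZ3 replicate 3, 9 members of this list were called lower. KRR1 was the other member called lower (-0.35). Its value was 0.11 with length and GC offsets, and its call was lost without any single library other than sgZ3 replicate 3. PWP2 was called higher (0.98) from under 1.1 CPM in every library, with 89.8% of its 50-base words shared with other genes. The call of PWP2 was lost without sgC replicate 1, 2 or 3 or sgZ3 replicate 2 or 3.

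Of 58 tested genes of large-subunit assembly, 30 rose and 3 fell (median 0.30). NOP16 was at 20.2, 22.2 and 19.9 CPM in sgC and 59.4, 56.6 and 47 in sgZ3, a log2 fold change of 1.39 (SE 0.11, adjusted p = 0.00026), and 20.0% of its exons lie under exons of the opposite strand. URB2 rose from 35.7, 42.1 and 40 CPM to 86.8, 78.9 and 78.1 (log2 fold change 1.05), MRTO4 by 0.94 and NOC2L by 0.64. RSL24D1 fell by 0.52, and 9 members were called lower without sgZ3 replicate 3. Of 20 proteins of small nucleolar ribonucleoproteins, which modify rRNA, 11 rose and 1 fell (median 0.38), and 3 were called lower without sgZ3 replicate 3. DKC1, the pseudouridine synthase, rose by 0.57, NOP56 by 0.49 and NHP2 by 0.70 (27.4% of its exons lie under the opposite strand). FBL, the rRNA methyltransferase, was called at 0.45 and fell to 0.16 with the offsets. Its call was also lost without sgC replicate 1, sgC replicate 3, sgZ3 replicate 1 or sgZ3 replicate 2. TCOF1, a partner of RNA polymerase I in the nucleolus, was the member that fell (-0.94), a call lost with no low-count filter or with all 9 libraries.

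The RNA exosome, which trims and degrades RNA, gave a mixed list, with 7 of 21 members higher and 4 lower (12 and 2 with the offsets). Its median was 0.10, and it was 0.35 with the offsets and -0.054 when libraries were scaled by totals alone. EXOSC5 rose by 0.88, EXOSC2 by 0.74 and EXOSC9 by 0.51, all subunits of the exosome core. RBM7, an adaptor that brings RNA to the nuclear exosome, fell by 0.70. Of 20 genes of RNA polymerase I, 9 rose and 1 fell (median 0.37), with POLR1B, a core catalytic subunit, up by 0.60. UBTF, which binds the rDNA promoter, fell by 0.58, a call lost without sgC replicate 3, sgZ3 replicate 1 or sgZ3 replicate 2. Of 27 genes of RNA polymerase III, which makes 5S rRNA and tRNA, 10 rose and 2 fell (median 0.14, and -0.012 on library totals). The polymerase I and polymerase III lists each had 4 genes called lower without sgZ3 replicate 3. POLR3K rose by 1.35 and BRF1 by 0.44.

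Ribosomal protein genes were high in sgZ3 replicates 1 and 2 and near sgC in replicate 3. Of 32 genes for 40S proteins 14 rose, and of 47 for 60S proteins 28 rose, with 0 lower in either list and medians of 0.39 in each. The sgZ3 libraries had medians of 0.61, 0.47 and 0.10 for 40S proteins and 0.57, 0.44 and 0.12 for 60S proteins, while the sgC libraries ran from -0.18 to 0.18. These counts depended on single libraries. Without sgZ3 replicate 3, 31 and 45 genes were called higher, and the counts were 1 and 4 without sgC replicate 1, 2 and 4 without sgC replicate 3, 6 and 6 without sgZ3 replicate 1, and 4 and 6 without sgZ3 replicate 2. With length and GC offsets 13 and 15 genes were called, and the medians were 0.27 in each list. RPS3 was at 1308, 1430 and 1143 CPM in sgC and 1962, 1740 and 1407 in sgZ3, so the groups overlapped (log2 fold change 0.40, adjusted p = 0.037). RPL5 (0.25) and RPL11 (0.43), which hold MDM2 back when assembly fails, were called with as little margin, and the calls of all 3 were lost without sgC replicate 1, sgC replicate 3, sgZ3 replicate 1 or sgZ3 replicate 2, that of RPL5 also without sgC replicate 2. RPS26 (0.62), RPL17 (0.74) and RPL6 (0.46) rose, with 27.6%, 39.5% and 34.1% of 50-base words shared with other genes.

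**Figure D4:**
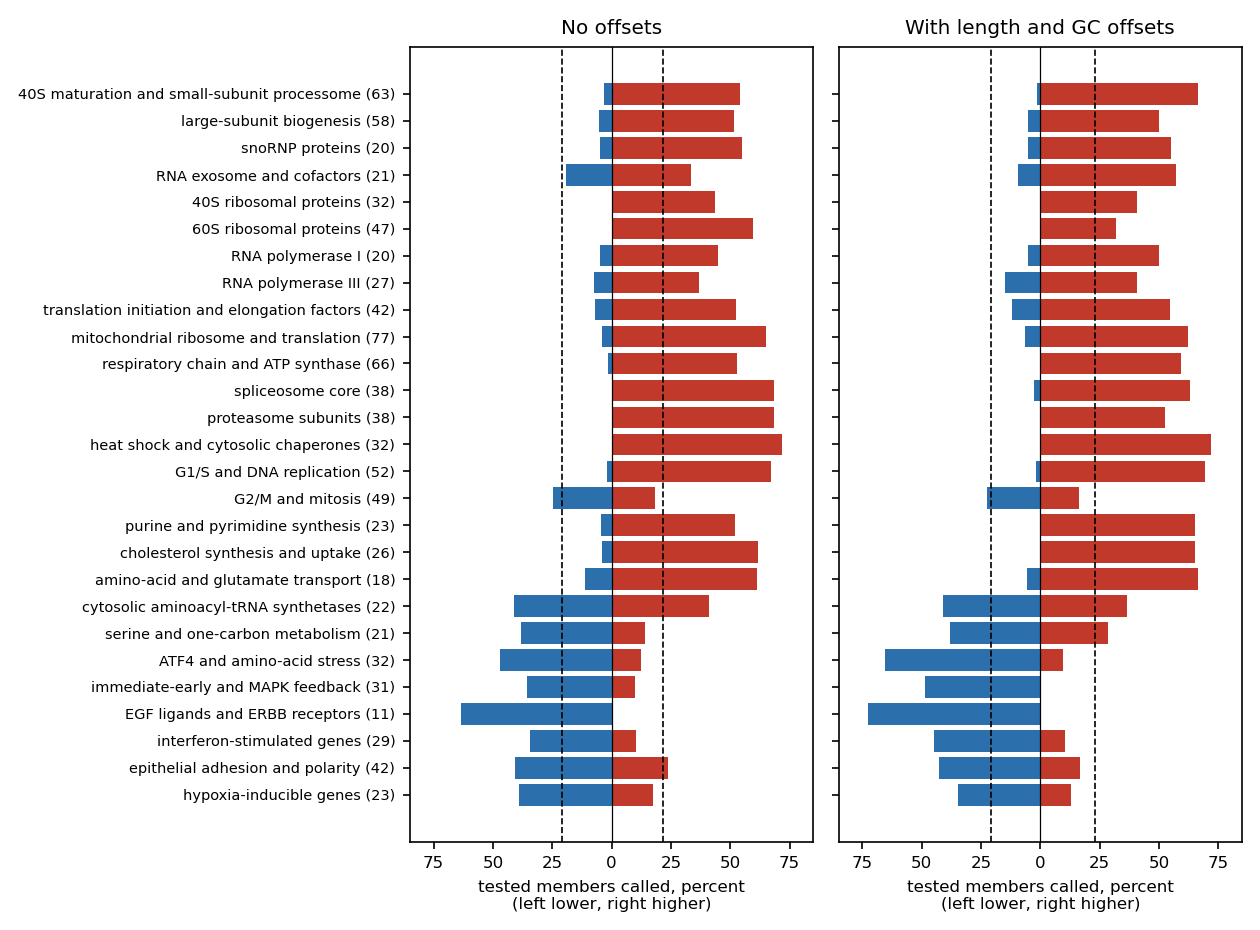
Percent of tested members called higher and lower in sgZ3 for 27 gene lists, beside all tested genes. The left panel is without offsets (all genes 21.8% higher, 21.0% lower). The right panel is with length and GC offsets (23.0% higher, 20.7% lower). Without offsets, heat shock genes, proteasome subunits, spliceosome genes and G1/S genes have the longest bars on the higher side. With the offsets, 20 of 38 proteasome subunits were called higher, a smaller share than the 42 of 63 genes of 40S maturation. ERBB ligands and receptors and ATF4 genes have the longest bars on the lower side in both panels.

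Of 42 translation initiation and elongation factors, 22 rose and 3 fell (median 0.22). EIF4E, which binds the mRNA cap, rose by 0.43 and EIF2B3, a subunit of the exchange factor for eIF2, by 0.71, while EIF5 fell by 0.47 (8 members called lower without sgZ3 replicate 3). Of 22 noncoding genes that host small nucleolar RNAs in their introns 9 rose and 0 fell (median 0.34). The count was 14 without sgZ3 replicate 3 and 4 without sgC replicate 1, sgC replicate 3, sgZ3 replicate 1 or sgZ3 replicate 2. DANCR was at 28.8, 33.1 and 26.4 CPM in sgC and 86.9, 84.4 and 58.3 in sgZ3 (log2 fold change 1.38). MYC, which drives many of these genes, was at 101, 102 and 110 CPM against 105, 103 and 123, and the groups overlapped (log2 fold change 0.08, adjusted p = 0.48). In the network of MYC and its relatives, 4 of 13 genes fell and 1 rose. MXI1, a MYC antagonist, fell by 0.61 and MLXIPL, the glucose sensor ChREBP, from 2.27, 2.19 and 2.84 CPM to 0.743, 1.24 and 0.7 (-1.43). MLXIP, the related sensor MondoA, was at -0.32 and was not called (adjusted p = 0.058), and it was called lower without sgZ3 replicate 3 (-0.45).

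MondoA and ChREBP switch on the arrestins TXNIP and ARRDC4 when glucose phosphates build up. ARRDC4 was at 53.8, 44.6 and 45.6 CPM in sgC and 16.8, 16 and 16.6 in sgZ3, a log2 fold change of -1.54 (SE 0.10, adjusted p = 0.00018). ARRDC3, a related arrestin, was at -0.89 and SLC2A10, a glucose carrier, at -0.56, and both passed the test. Of the 16 genes in the list of these arrestins and glucose uptake, 5 fell and 5 rose (2 rose without sgC replicate 1, sgC replicate 3, sgZ3 replicate 1 or sgZ3 replicate 2). PDK4, a kinase that shuts the entry of pyruvate into the citric acid cycle, was at 9.02, 8.16 and 8.47 CPM in sgC and 3.38, 3.78 and 4.9 in sgZ3 (-1.08). The gluconeogenesis list, a class ZNF692 has been described as repressing, had 6 of 11 tested members higher and 1 lower (median 0.28). PCK1 (at most 0.241 CPM), G6PC1 (0 in all 6 libraries) and FBP2 (at most 0.193 CPM) were not tested, so these counts leave them out. With the offsets the list had 5 higher and 3 lower, with a median of 0.13. G6PC3, a ubiquitous glucose-6-phosphatase, rose by 0.53. PCK2, the mitochondrial enzyme that makes phosphoenolpyruvate and a known ATF4 target, was the member that fell, from 303, 201 and 252 CPM to 88.1, 93.5 and 80.6 (log2 fold change -1.53, SE 0.14). Of 23 glycolysis genes 9 rose and 6 fell, with a median of 0.12 and of -0.034 on library totals. ALDOC, an aldolase, fell by 1.34, and PGAM1 rose by 0.63, with 42.8% of its 50-base words shared with other genes. Without sgC replicate 1 or sgC replicate 3, 3 glycolysis genes were called higher, and 5 without sgZ3 replicate 1 or sgZ3 replicate 2, while 3 were called lower with the offsets.

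DNA replication genes rose together. They are switched on by E2F factors as cells enter S phase, and their promoters can carry the E2F motif TTTCGCGC or its reverse, GCGCGAAA. Of 52 genes of G1/S and DNA replication, 35 rose and 1 fell (67.3% higher), with a median of 0.54 and sgZ3 library medians of 0.61, 0.52 and 0.49. MCM6, a subunit of the replicative helicase, was at 251, 298 and 278 CPM in sgC and 427, 411 and 404 in sgZ3 (log2 fold change 0.59), and 60 bases of its promoter are printed with the motif in capitals (RefSeq, GRCh38.p14, chr2:135876558-135876617, minus strand, motif from 148 bases before the start).
MCM6: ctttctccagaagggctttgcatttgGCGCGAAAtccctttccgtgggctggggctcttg
The motif, on either strand, was in 7 of 59 promoters of these genes (11.9%) and in 0.818% of promoters of all tested genes. CCNE1, the cyclin of S-phase entry, was at 10.4, 11.3 and 11.3 CPM in sgC and 23.5, 25 and 22.4 in sgZ3, a log2 fold change of 1.10 (SE 0.10, adjusted p = 0.00029). FEN1, a flap nuclease, rose by 1.14, CDC25A, a phosphatase that activates CDK2, by 1.09, E2F1 by 1.10 and the loading factor CDC6 by 0.73. PRIM1, the primase subunit, was the member that fell (-0.33), and 4 members were called lower without sgZ3 replicate 3.

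Calls among mitotic genes were near the shares over all genes. Of 49 tested, 9 rose and 12 fell (18.4% and 24.5%, against 21.8% and 21.0%). Without sgZ3 replicate 3, 14 rose and 24 fell, and leaving out any 1 of the others gave at most 8 higher and 7 lower. MKI67, a long transcript and a common marker of cycling cells, was at 98.3, 78.2 and 109 CPM in sgC and 29.9, 34.1 and 52.5 in sgZ3 (log2 fold change -1.29, and -1.11 with length and GC offsets). CCNB1 rose by 0.40 and BIRC5, survivin, by 0.66. CDK1 was called at -0.26 and not with the offsets (-0.07), and its call was lost without sgC replicate 1, sgC replicate 2, sgZ3 replicate 1 or sgZ3 replicate 2. Of 30 CDK inhibitors and p53 targets, 10 fell and 4 rose (5 fell without sgZ3 replicate 1, and 6 without sgC replicate 1, sgC replicate 3 or sgZ3 replicate 2). CDKN2B, the inhibitor p15, fell by 0.98, and CDKN2A, the gene of p16, from 1.78, 3.15 and 2.37 CPM to 1.15, 0.702 and 1.2 (-1.25). CDKN1A, the inhibitor p21, was at 61.1, 63.4 and 54.5 CPM against 60.6, 59.4 and 54.3, and the groups overlapped (log2 fold change -0.04, adjusted p = 0.75). With length and GC offsets CDKN1A was called lower (-0.25, adjusted p = 0.0176). AEN, a nuclease induced by p53, rose from 15.8, 19.1 and 20 CPM to 53.2, 49.4 and 42.1 (1.40). The mismatch repair list had 1 of 8 members higher and 3 lower, and 3 higher without sgZ3 replicate 3.

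Most cytosolic chaperones rose. Of 32 tested, 23 rose (71.9%) and 0 fell, with a median of 0.44. HSPA8, the constitutive HSP70, was at 1401, 1568 and 1433 CPM in sgC and 3069, 2773 and 2795 in sgZ3, a log2 fold change of 0.97 (SE 0.08, adjusted p = 0.00029). Its partner DNAJA1 rose by 0.99, the HSP90 partner FKBP4 by 0.96 and CHORDC1 by 0.76. HSPA1B, the inducible HSP70, was called at 0.62. That call was lost with the offsets (0.40) and without sgC replicate 2 or sgC replicate 3, and 73.5% of its 50-base words are shared with other genes. In the endoplasmic reticulum 9 of 29 folding genes rose and 2 fell, with a median of 0.09 and of -0.07 on library totals. HSPA5, the main chaperone there, rose by 0.56, MANF by 0.84 and SDF2L1 by 1.07. The stress sensor ERN1 fell by 0.88, and 9 members were called lower without sgZ3 replicate 3.

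Of 38 proteasome subunits and activators 26 rose and 0 fell (median 0.35), and the count was 11 to 14 without sgC replicate 1, sgC replicate 3, sgZ3 replicate 1 or sgZ3 replicate 2. PSME3, an activator cap, was at 267, 291 and 297 CPM in sgC and 462, 462 and 420 in sgZ3 (log2 fold change 0.65), and the ATPase subunit PSMC5 rose by 0.54. Of 38 spliceosome core genes 26 rose and 0 fell (median 0.45), and 4 were called lower without sgZ3 replicate 3. U2AF2, which reads the polypyrimidine tract, rose by 0.67 and SNRPD1, an Sm ring protein, by 0.72. The groups did not overlap in any of these 4 named genes.

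**Figure D5:**
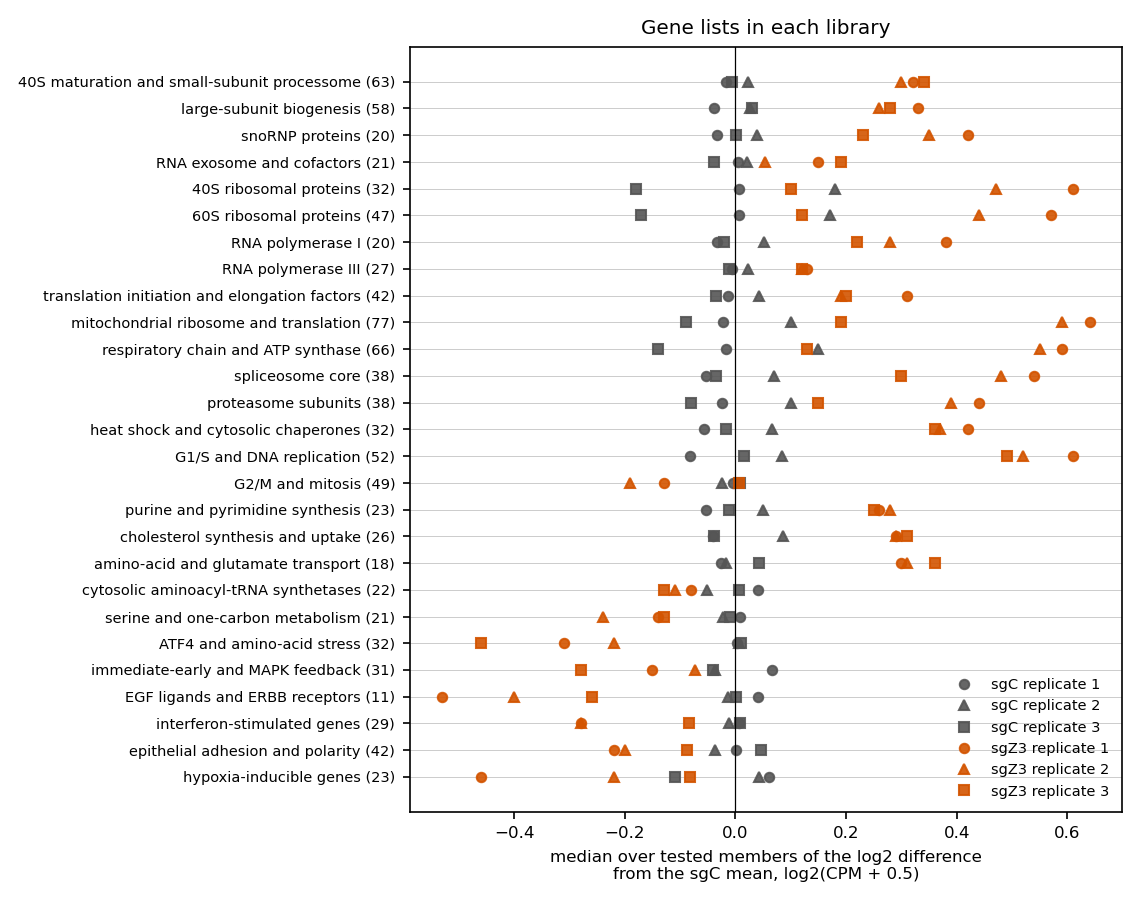
Median log2 difference from the sgC mean over the tested members of 27 gene lists, 1 point per library. Lists of replication, chaperone and splicing genes lie above 0 in each sgZ3 library (G1/S at 0.61, 0.52 and 0.49). The ATF4 list lies below 0 in each (-0.31, -0.22 and -0.46). Medians of other fits are not drawn. Under the standard fit, with length and GC offsets and with library totals alone, G1/S was at 0.54, 0.42 and 0.38. The ATF4 list was at -0.34, -0.44 and -0.50 in these fits.

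Nuclear genes of mitochondrial translation and respiration rose, and like ribosomal proteins they are short and were nearest to sgC in sgZ3 replicate 3. Of 77 genes of the mitochondrial ribosome and its translation 50 rose and 3 fell (median 0.51, 0.35 with length and GC offsets). The sgZ3 library medians were 0.64, 0.59 and 0.19. MRPL36 rose by 1.13, MRPS2 by 0.74 and MRPS28 by 0.80, with 43.3% of the 50-base words of MRPS28 shared with other genes. MRPS30 fell by 0.68. Of 66 genes of the respiratory chain and ATP synthase 35 rose and 1 fell (median 0.43, 0.28 with the offsets). NDUFA8, a complex I subunit, rose by 0.59 and CYCS, cytochrome c, by 0.46. The respiratory count was 58 without sgZ3 replicate 3 and 13 to 18 without sgC replicate 1, sgC replicate 3, sgZ3 replicate 1 or sgZ3 replicate 2. The mitochondrial ribosome count was 30 without sgC replicate 3 and 31 without sgC replicate 1. The mitochondrially encoded genes MT-CO1, MT-ND1, MT-CYB and MT-ATP6 were listed at 0 in all libraries, as were the abundant housekeeping genes EIF4A1 and EEF1G, so a 0 in this table need not mean an absent transcript.

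Polyamines, nucleotides and cholesterol are made in quantity by growing cells. Of 12 polyamine genes 6 rose and 2 fell (median 0.32). SRM, spermidine synthase, was at 69.3, 77.8 and 73.4 CPM in sgC and 164, 179 and 127 in sgZ3 (log2 fold change 1.09), AMD1 rose by 0.87 and ODC1, the rate-limiting enzyme, by 0.66. SMOX, which oxidises spermine, fell by 0.68. Of 23 purine and pyrimidine synthesis genes 12 rose and 1 fell (median 0.26), among them IMPDH1 (0.87), UMPS (0.80) and CTPS1 (0.64), which make guanine, uridine and cytidine nucleotides. The count was 7 without sgC replicate 1.

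Of 26 genes of cholesterol synthesis and uptake 16 rose and 1 fell (median 0.28). DHCR7, which catalyses a late step, was at 401, 449 and 410 CPM in sgC and 739, 780 and 732 in sgZ3, a log2 fold change of 0.84 (SE 0.07, adjusted p = 0.00029). EBP, another late-step enzyme, rose by 1.06, and the groups did not overlap in either gene. STARD4, a sterol carrier, fell by 0.47, and its value was -0.12 with the offsets, which was not called. The whole list had 10 members called higher without sgC replicate 1. Of 19 fatty-acid genes 3 rose and 1 fell (median 0.024, -0.13 on library totals), and 7 were called lower without sgZ3 replicate 3.

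Calls among ERBB and MAPK genes were mostly downward. Of 11 EGF ligands and ERBB receptors 7 fell and 0 rose (63.6% lower, median -0.46, -0.26 with length and GC offsets). ERBB2 was at 138, 125 and 144 CPM in sgC and 78.4, 88.5 and 104 in sgZ3, a log2 fold change of -0.59 (SE 0.11, adjusted p = 0.0042). ERBB3 fell by 0.46, and the ligands BTC and EREG by 0.65 and 0.52. EGFR was called at -0.59 with overlapping groups (78.4, 61.1 and 81.8 against 37.9, 42 and 66.3 CPM), and that call was lost without sgC replicate 1, sgC replicate 3, sgZ3 replicate 1 or sgZ3 replicate 2. The receptor list had 4 members called without sgC replicate 1, sgC replicate 3, sgZ3 replicate 1 or sgZ3 replicate 2. Of 31 immediate-early and MAPK feedback genes 11 fell and 3 rose (15 and 0 with the offsets, median -0.23), and 6 fell without sgC replicate 1 and 7 without sgZ3 replicate 1. ETV5, a target of ERK signalling, fell from 62.7, 55.9 and 60.8 CPM to 30.4, 28.2 and 32 (-0.99), and SPRED1 fell by 0.66. EGR1 was called at -0.38, a call lost without sgC replicate 1 or sgZ3 replicate 1, and DUSP1 at 0.62, a call lost with the offsets (0.33).

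In the list of DEPTOR and mTOR regulators 7 of 28 rose and 6 fell (median -0.08, 0.02 with the offsets). These shares are near those over all genes. Without sgC replicate 1, 3 were called higher, and 4 without sgC replicate 3, sgZ3 replicate 1 or sgZ3 replicate 2 or with the offsets. The number called lower was 11 without sgZ3 replicate 3. DEPTOR, an inhibitor that binds mTOR, was at 10, 7.36 and 6.95 CPM in sgC and 2.9, 2.38 and 2.35 in sgZ3 (log2 fold change -1.68). SESN3, a sestrin, fell by 1.02 and RICTOR by 0.76 (-0.25 with the offsets), while LAMTOR4, a subunit of the lysosomal scaffold, rose by 0.99. MTOR itself was not called (-0.28, adjusted p = 0.058), and it was called lower without sgZ3 replicate 3 (-0.39). Of 26 Wnt targets and antagonists 6 rose and 6 fell, near the shares over all genes, and 2 rose without sgC replicate 3 and 3 without any other single library but sgZ3 replicate 3. SOX9 was at 166, 148 and 182 CPM in sgC and 63.9, 73.2 and 112 in sgZ3 (-0.99), PROX1 fell by 1.10 and the stem-cell receptor LGR5 rose by 0.60. The call of SOX9 was not kept when genes with low counts were left in (adjusted p = 0.062). The DKK1 call at 2.94 rested on sgZ3 replicate 3 (8.15 CPM, 0.743 and 1.02 in replicates 1 and 2), and it was lost without sgC replicate 1, 2 or 3, with the offsets, with all 9 libraries or with no low-count filter.

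Epithelial adhesion and polarity genes moved both ways, with 17 of 42 lower and 10 higher. The counts were 9 lower without sgC replicate 3 or sgZ3 replicate 2, and 4 or 5 higher without sgC replicate 1, sgC replicate 3 or sgZ3 replicate 2. KLF5, a transcription factor of intestinal crypts, belongs to the enterocyte list given below. It was at 295, 281 and 297 CPM in sgC and 155, 173 and 198 in sgZ3 (log2 fold change -0.73). LAMB3, a laminin chain, fell by 0.80, and ESRP1, an epithelial splicing factor, fell by 0.79. CLDN2, a pore-forming claudin, rose from 34.8, 38.6 and 41.3 CPM to 82.8, 82.8 and 88.7 (1.15), and EPCAM by 0.36. E-cadherin, CDH1, was not called (-0.21, adjusted p = 0.16), and it was called lower without sgZ3 replicate 3 (-0.32). The intestinal factor CDX2 was not called (-0.05), and it was called lower with the offsets (-0.21). In the enterocyte list 3 of 17 rose and 3 fell (17.6% each, against 21.8% and 21.0% of all genes). HNF4A (-0.60) and KLF5 were among those that fell. In the goblet and enteroendocrine list 1 of 13 rose and 3 fell (7.69% and 23.1%), with HEPACAM2 at -1.52 and INSM1 at -1.27 among those that fell. The members of these lists that rose are given by count alone. Of the enterocyte genes 10 were called lower without sgZ3 replicate 3. With the offsets 6 enterocyte and 5 goblet and enteroendocrine genes were called lower.

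Interferon-stimulated genes and the antigen presentation machinery went in different directions. Of 39 interferon-stimulated genes 29 were tested, of which 10 fell and 3 rose (median -0.19). The number that fell was 4 to 6 without any single library other than sgZ3 replicate 3. Untested members, left out of these counts, were highest in sgZ3 replicate 3, all but MX2, IRF9 and DDX58. BST2, for example, was at 3.85 CPM there and at most 0.434 in the other libraries. IFIT2 fell by 1.32 and the RNA sensor IFIH1 by 0.54. IFIT1 was called at -0.44, a call lost without sgC replicate 1, sgC replicate 2 or sgZ3 replicate 1. ISG15 rose by 0.51. Of 14 genes of MHC class I presentation 8 rose and 1 fell (median 0.35), and 5 rose without sgC replicate 1, sgC replicate 3 or sgZ3 replicate 2 or with the offsets. TAP1, which pumps peptides into the endoplasmic reticulum, was at 201, 203 and 198 CPM in sgC and 322, 302 and 277 in sgZ3 (log2 fold change 0.58, SE 0.08). TAPBP fell by 0.53, a call lost without sgC replicate 3 or sgZ3 replicate 2.

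Of 23 hypoxia-inducible genes 9 fell and 4 rose (7 rose without sgZ3 replicate 3), with BNIP3L, a mitophagy receptor, at -0.82, VEGFA at -0.45 and the glucose carrier SLC2A1 at 0.40. Of 29 genes of heparan sulfate and hyaluronan 10 rose and 2 fell (median 0.13, -0.025 on library totals), and 9 were called lower without sgZ3 replicate 3. SDC1, a syndecan, was at 145, 158 and 140 CPM in sgC and 263, 278 and 273 in sgZ3 (log2 fold change 0.88). HAS3, a hyaluronan synthase, rose by 1.37 and HS3ST1, a sulfotransferase, by 0.73, while CEMIP, which degrades hyaluronan, fell by 0.70. Of 26 NRF2 targets 6 rose and 3 fell (median 0.05, -0.10 on library totals), and of 26 genes of NF-kappaB and chemokines 6 rose and 4 fell. The share called higher was 23.1% in each list, near the 21.8% of all genes. The shares called lower were 11.5% and 15.4%, under the 21.0% of all genes. Without sgC replicate 1, 2 NRF2 targets were called higher, and without sgZ3 replicate 3, 10 NRF2 targets were called higher and 8 genes of NF-kappaB and chemokines were called lower. The 10 tested genes near ZNF692 or among its zinc-finger neighbours had 0 calls in either direction by edgeR, and 2 of them, ZNF692 included, were called higher without sgZ3 replicate 3.

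The guides against ZNF692 were compared directly, since sgZ3 against sgC alone cannot show which differences the other guide has too. With all 9 poly(A) libraries in the fit, 4209 of 14732 genes differed between sgZ3 and sgZ1, of which 1882 (12.8%) were higher in sgZ3 and 2327 (15.8%) lower. Of the 63 genes of 40S maturation 3 were higher and 10 lower in sgZ3 than in sgZ1, of 59 large-subunit genes 3 were higher and 12 lower, and of 52 G1/S genes 7 were higher and 6 lower. UTP18 was at 119, 160 and 119 CPM in sgZ1 and 147, 140 and 139 in sgZ3, with overlapping groups (log2 difference 0.09, SE 0.12, adjusted p = 0.56). The ATF4 list stood lower in sgZ3, with 14 of 32 members below sgZ1 and 3 above (median -0.41). ADM2 was at 13, 7.33 and 14.1 CPM in sgZ1 and 2.77, 2.49 and 3.35 in sgZ3 (log2 difference -1.99, adjusted p = 7.6e-05). TXNIP was at 301, 262 and 270 CPM against 150, 160 and 144, a log2 difference of -0.87 (SE 0.10), so the sgZ3 libraries were below those of sgZ1 in both genes.

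Of 33 immediate-early and MAPK feedback genes, 22 were lower in sgZ3 than in sgZ1 and 0 higher (median -0.49). MYC was at 211, 170 and 236 CPM in sgZ1 and 106, 104 and 125 in sgZ3 (log2 difference -0.89, SE 0.12, adjusted p = 0.00027). Cholesterol genes were higher in sgZ3 in 15 of 26 and lower in 2 (median 0.39), and DHCR7 differed by 0.61. MHC class I genes were higher in 9 of 14 and lower in 0 (median 0.42), with TAP1 at 158, 210 and 180 CPM in sgZ1 and 323, 304 and 281 in sgZ3. Amino-acid transporters were higher in 10 of 20 and lower in 3, with SLC1A3 at 19.6, 28 and 23.8 CPM against 46.1, 49.5 and 51.9. MFSD2A was at 12.9, 15.9 and 14.4 CPM in sgZ1 and 33.2, 32.9 and 31.8 in sgZ3 (log2 difference 1.18, SE 0.11). Other genes were far higher in sgZ1: HAS3 was at 49.3, 46.8 and 55.4 CPM in sgZ1 and 7.17, 5.8 and 7.05 in sgZ3, and HS3ST1 at 108, 126 and 126 against 38.6, 38.1 and 36.8. DKK1 was at 290, 381 and 300 CPM in sgZ1 and at most 8.27 in sgZ3. C4BPB (1.62), LINC01508 (1.51), H4C8 (1.41), EBPL (1.25) and H3C12 (1.23) were the 5 genes highest in sgZ3 over sgZ1 among those also called against sgC. Of these, H4C8 lost its call against sgC without sgC replicate 1, 2 or 3 or sgZ3 replicate 2, and EBPL without sgC replicate 1, sgC replicate 3, sgZ3 replicate 1 or sgZ3 replicate 2. The number of genes that differed between guides was 2501 without sgZ1 replicate 1, 2636 without sgZ3 replicate 2, 2690 without sgZ3 replicate 1 and 6153 without sgZ3 replicate 3.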

How the data were processed

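The authors deposited a table of raw whole-number counts for each gene in the poly(A) libraries. The submitters' processing notes list DESeq2, HTSeq, SAMtools 1.9 and STAR 2.5.2b without roles, and the build as GRCh38 or hg38. Which annotation release and strand setting were used for counting is not given in the sources used here, so reads of a gene and an antisense partner cannot be told apart. Sample titles gave each library its group and number. The description of sgC replicate 3 names the ribosomal RNA table, and the library was used as poly(A) because its title and molecule label say so. The 9 ribosomal RNA libraries were not used here.

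Counts of the 3 sgC and 3 sgZ3 libraries were filtered with filterByExpr, scaled with TMM and fitted with edgeR 4.0.16 (robust quasi-likelihood, group as the only term) in R 4.3.3, with limma 3.58.1. Calls are at a Benjamini-Hochberg false discovery rate under 0.05 over all 14021 genes. Standard errors are the log2 fold change over the root of F. Total counts per library, 16044224 to 22111364, set the precision. GENCODE 29 (GRCh38) gave positions, exonic length and GC content, and RefSeq (GRCh38.p14) the promoters. Length and GC offsets were lowess curves (span 0.3) of each library's log2 ratio. Shared 50-base words were counted between exonic transcripts of different genes. Per-library log2 differences use a pseudocount of 0.5 CPM. The guides were compared with all 9 poly(A) libraries in the fit.

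Members and lists (46 gene lists and 6 marker lists) were chosen with earlier results of these data known, so counts over a list are a description and no list was tested. Named genes come from a rule: ZNF692, the 12 highest and 12 lowest called fold changes at a mean of at least 2 CPM with separated groups, the leading members and the most significant called members of each list in both directions, and the 5 genes at either end of the difference between guides. It takes 342 genes, of which some are given by their list's counts alone and some are not reported here. MCM6 is named for its promoter, chosen after the values were seen.

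On simulated counts for sgZ3 against sgC (13829 genes, 200 of them changed), the fit recovered 65.7% of 1.5-fold changes, 73.1% of 2-fold changes and 97.0% of 4-fold changes, with 9 false calls of 166. The simulated counts had no length trend and no library set apart. In the data 42.8% of genes were called, so these rates need not carry over to them. Each of these was changed alone: the tool (DESeq2 1.42.0), the scaling (upper-quartile or RLE factors, or library totals), the low-count filter (none, or 10 CPM on average), the libraries (all 9 poly(A) ones, or each left out in turn), a block for the replicate number, the robust step, length and GC offsets, and the threshold (0.01, or at least 2-fold).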

Additional observations from a re-analysis of the deposited data

Results flagged for a closer look

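For 11 named genes the guides moved to opposite sides of sgC, each past the test, and the direct difference of sgZ3 minus sgZ1 (log2, edgeR over 9 libraries) passed as well. Both guides are read against the same sgC libraries. WNT16, a Wnt ligand, was at -0.72 in sgZ3 and 5.33 in sgZ1 (difference -6.04), and its call in sgZ3 was lost without sgC replicate 1, 2 or 3 or sgZ3 replicate 1. ARHGAP4 was at -1.65 and 3.51 (-5.16), and CDKN2A at -1.25 and 3.84 (-5.09). KCNN4, a potassium channel, was at -1.33 and 3.59 (-4.92), and its call in sgZ3 was lost without sgC replicate 1, 2 or 3 or sgZ3 replicate 2. ALDOC was at -1.34 and 1.52 (-2.86), MLXIPL at -1.43 and 1.04 (-2.47) and ESRP1 at -0.79 and 1.42 (-2.22). SMOX was at -0.68 and 0.46 (-1.14), KRR1 at -0.35 and 0.55 (-0.90) and EGR1 at -0.38 and 0.50 (-0.88). In sgZ3, KRR1 and EGR1 passed narrowly in this edgeR fit (adjusted p = 0.0474 and 0.0483). In the fit without sgZ1, KRR1 lost its call without any single library other than sgZ3 replicate 3, and it was at 0.11 with the offsets. EGR1 lost its call there without sgC replicate 1 or sgZ3 replicate 1. EPCAM alone went up in sgZ3 and down in sgZ1, at 0.36 and -0.26 (0.62).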

How the results depend on the processing

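Of 5999 calls, other settings gave 3119 at a false discovery rate under 0.01 and 662 with a 2-fold minimum, both by construction of the stricter rule. Leaving out each library gave 3501 to 8573 calls against sgC, and 2501 to 6153 of the 4209 between guides. DESeq2 gave 5790, RLE factors 6035, a fit without a low-count filter 5719, all 9 poly(A) libraries 5355 and the offsets 6138, of which 4665 were also called without them.

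The replicate numbers were used as a block, giving 7352 calls against sgC (5960 shared) and 5005 between guides. Same-numbered libraries correlated at 0.09, 0.22 and 0.37 in their deviations, other pairs at -0.32 to 0.24, and sgC replicate 2 correlated best with sgZ3 replicate 1, so the numbers were not taken as pairs.

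Of 180 called genes named here, 153 kept their call in every alternative fit that tested them, the stricter threshold aside. Genes below a mean of 10 CPM were not tested in the fit with that filter, so for them it shows nothing. The call was lost by 23 without at least 1 library, and by 10 each with the offsets or all 9 libraries. It was lost by 11 with no filter, 10 with library totals, 3 with DESeq2 and 2 with the block. The direction of KRR1 was turned by the offsets (0.11). MYC, not called, was at -0.00057 with upper-quartile factors, -0.072 on library totals and -0.13 with the offsets, and CDKN1A, not called, was at 0.0079 without sgC replicate 2, 0.017 without sgZ3 replicate 3, -0.099 without sgC replicate 3, -0.19 on library totals, -0.12 with upper-quartile factors and -0.25 with the offsets, where it was called. The cause was not tested. Among the calls lost were those of PWP2, RPS3, RPL5, RPL11 and H4C8 with upper-quartile factors, PWP2, WNT16 and KCNN4 with DESeq2, RPS3, RPL5, RPL11, FBL, HSPA1B, H4C8, EBPL, KRT8 and PWP2 on library totals, CDK1, EGFR, H4C8 and RPL5 with all 9 libraries, and EGFR, EBPL, PWP2 and WNT16 with no filter. Calls gained on library totals were those of ATF4, DDIT3, MLXIP, MTOR, CDH1, CDX2, VIL1 and LGALS4. Genes under about 1 CPM rest on few counts, and depth limits what was detectable for them.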

Other observations

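Several further genes rose by nearly as much as the 12 highest and were picked after their values were seen. SLC5A6, the carrier of biotin and pantothenate, was at 75.5, 82.8 and 77.3 CPM in sgC and 227, 217 and 198 in sgZ3 (log2 fold change 1.45, SE 0.08). TMEM109, a membrane protein of the endoplasmic reticulum and nuclear envelope, was at 132, 149 and 145 CPM against 396, 403 and 358 (1.44). The hydroxylase JMJD6 was at 11.7, 13.9 and 11.1 CPM against 35.4, 31.8 and 31.7 (1.43), and TPM1, a tropomyosin, at 7.76, 8.37 and 8.89 against 22.3, 20.8 and 24.9 (1.44). Of TPM1 exons 21.4% lie under exons of the opposite strand. ERVMER34-1, an envelope gene of an endogenous retrovirus, was at 13.7, 15.4 and 17.6 CPM against 42.1, 40.3 and 42.8 (1.42). In each of these 5 genes the groups were far apart, and sgZ3 replicate 3 lay with the other sgZ3 libraries.

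Some RNAs that normally have no poly(A) tail were high in sgZ3 replicate 2. RMRP, the RNA of RNase MRP, was at 2.12, 12.3 and 4.49 CPM in sgC and 4.86, 85.1 and 10.8 in sgZ3, and RPPH1, the RNA of RNase P, at 3.18, 9.71 and 2.8 against 6.68, 34.9 and 7.6. By gene type, 23.3% of 12408 protein-coding genes were called higher and 22.5% lower, against 7.49% and 12.2% of 427 lincRNA genes.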
